A study of Arabidopsis thaliana with 12 samples.

Results

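Transcripts of 4 nuclear genes for proteins of the photosynthetic membrane were followed in Arabidopsis thaliana: the light-harvesting gene LHB1B2 (AT2G34420, also known as LHCB1.5), the photosystem II genes PSBW (AT2G30570) and PSBY (AT1G67740), and the photosystem I gene PSAN (AT5G64040). They were taken by name from the annotation of the array, each through the single probe that names this gene and no other. They make up 4 of the 692 probes that name 1 gene, on an array of 3439 probes. Total RNA came from wild-type plants of the Landsberg ecotype, 6 samples after 48 h in blue light of 200 µE and 6 samples after 48 h in blue light of 20 µE (µE, a shorthand for photon flux). All samples thus shared genotype, ecotype, light colour and duration, and differed in the brightness of the light. The labels give neither the tissue, the age nor the number of plants per sample, nor whether samples came from separate plants.

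Photosystem II and photosystem I work in series in the thylakoid membrane of the chloroplast, moving electrons from water toward ferredoxin. Light is gathered for photosystem II mainly by trimers of chlorophyll a/b proteins, to which the LHCB1 proteins contribute, and plants kept in strong light are known to hold a smaller antenna per reaction centre than plants kept in dim light. The small subunits PsbW and PsbY lie in the membrane around the photosystem II core, whereas PsaN lies on the lumen side of photosystem I, where plastocyanin docks.

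Each sample is a column of intensities in arbitrary units, and the number of arrays limits the precision. The columns at 200 µE had medians of 0.171 to 0.218 units and 16.5 to 18.3% of their values at 0, and their 100 brightest probes held 51.8 to 55.6% of the summed intensity. The columns at 20 µE had medians of 0.401 to 0.574 units and 12.4 to 14.3% of their values at 0, and the 100 brightest probes held 34.2 to 44.0%. A direction can therefore depend on how columns are brought to a common scale. Neighbouring columns of a group, numbered 1 with 2, 3 with 4 and 5 with 6, deviated together, so each such couple was also averaged and counted once (n = 3 couples per group). Changes are 200 µE minus 20 µE on the log2 scale after quantile normalisation unless stated, with limma's standard error and an adjusted p over the 2983 probes tested. The words rose and fell are reserved for probes that passed at 0.05 in the fit to all 12 columns and again in the fit to couple means.

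None of the 4 genes met that rule. Over the 12 columns 3 of the 4 passed (limma), PSBY as higher at 200 µE and LHB1B2 and PSBW as lower, where 56.6% of all tested probes passed, 27.9% as higher and 28.8% as lower. Over couple means 0 of the 4 passed (limma; none had an unadjusted p under 0.05), where 30.7% of all tested probes did. PSBY was the only one of the 4 with the same sign under all 4 scalings tried. The signs of LHB1B2, PSBW and PSAN turned between scalings. In RNA of whole samples, fewer cells that express a gene and less of its RNA per cell cannot be told apart.

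**Figure D1:**
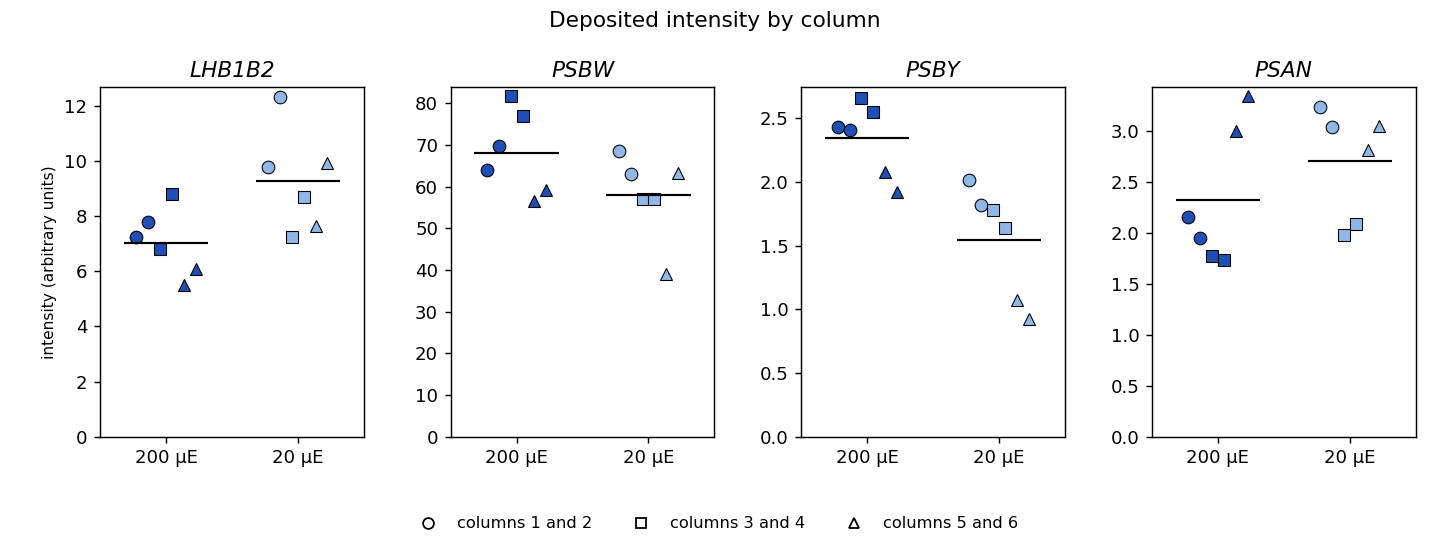
Deposited intensity (arbitrary units, axis from 0) of the 4 probes in each column, 6 columns at 200 µE and 6 at 20 µE, with symbols marking the couples of columns and lines the group means. PSBY lies between 1.93 and 2.66 units at 200 µE and between 0.928 and 2.02 units at 20 µE; the other 3 genes overlap more widely.

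LHB1B2 encodes a chlorophyll a/b protein of the trimeric antenna of photosystem II. Its intensity was 5.52 units at the lowest, 7.03 at the median and 8.80 at the highest at 200 µE, against 7.22, 9.24 and 12.3 units at 20 µE. The groups overlapped, and the 200 µE column was lower than the 20 µE column of the same number in 5 of 6 pairs, the exception being column 4. The couple means averaged 7.04 ± 1.09 units at 200 µE and 9.26 ± 1.61 units at 20 µE (SD, n = 3). The log2 change was -0.59 ± 0.17 (SE), which passed over 12 columns (limma, adjusted p = 0.012) but not for couple means (0.16). LHCB1 genes are near-identical copies, and signal from other copies on this probe cannot be told apart from its own.

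Among all probes of a column, ordered from the brightest, LHB1B2 held ranks 52 to 75 at 200 µE, with a median of 64, and ranks 27 to 53 at 20 µE, with a median of 39.5. It stood further from the top at 200 µE in 6 of 6 pairs, although ranks 52 and 53 of the groups cross. The mean rank differed by 22.8 places (exact permutation test over 12 columns, two-sided, p = 0.00433; p = 0.1 over couple means, the smallest that 3 against 3 allows). With the 1877 probes not listed in the annotation left out of the ranking, the difference was 6.3 places (exact permutation p = 0.0455). As deposited the sign was the same, with a log2 change of -0.39 ± 0.17 that missed the threshold (limma, adjusted p = 0.059), but it was 0.24 ± 0.17 after scaling to the 75th percentile and 0.72 ± 0.17 after median centring. The last passed as higher over 12 columns (limma, adjusted p = 0.0029) and not over couple means (0.074). After median centring 984 of the 2983 tested probes passed as higher over 12 columns (limma). LHB1B2 was thus called in opposite directions and no direction is given.

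PSBW encodes a small subunit of photosystem II that in Arabidopsis helps to hold core and antenna together in supercomplexes. By its mean rank over the 12 columns, 5.0, its probe was first of the 692 that name 1 gene, though brightness also depends on the probe and is no measure of abundance between genes. Its intensity was 56.5 units at the lowest, 66.8 at the median and 81.7 at the highest at 200 µE, against 39.1, 60.0 and 68.6 units at 20 µE. The groups overlapped, and 4 of 6 pairs were higher at 200 µE. The deposited scale ends at 100 units, and 1 or 2 probes lay above 99 units in 9 of the 12 columns, and PSBW stayed below that end in every column.

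By rank PSBW lay the other way. It held ranks 5 to 9 at 200 µE and ranks 1 to 7 at 20 µE, further from the top at 200 µE in 6 of 6 pairs. The mean rank was 6.5 at 200 µE and 3.5 at 20 µE, a difference of 3.0 places (exact permutation test over 12 columns, two-sided, p = 0.0455; p = 0.2 over couple means). Leaving out column 4, 5 or 6 at 200 µE, or column 1, 2, 3, 4 or 6 at 20 µE, took this exact p above 0.05, up to 0.0844, and when only probes listed in the annotation were ranked the difference was -0.5 places.

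The change of PSBW was thus -0.48 ± 0.18 after quantile normalisation (limma, adjusted p = 0.037 with 12 columns, 0.26 with couple means). It was 0.24 ± 0.17 as deposited, 0.87 ± 0.15 after scaling to the 75th percentile and 1.34 ± 0.15 after median centring. The values after the last 2 scalings passed as higher over couple means as well (limma, adjusted p = 0.027 and 0.0063). Over couple means 363 and 660 of the 2983 tested probes passed as higher under these scalings, and 652 and 984 over 12 columns. Leaving out 200 µE column 4, 5 or 6, or 20 µE column 1, 2 or 6, ended the quantile call, with adjusted p between 0.053 and 0.091 (limma). No direction is given for this gene.

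**Figure D2:**
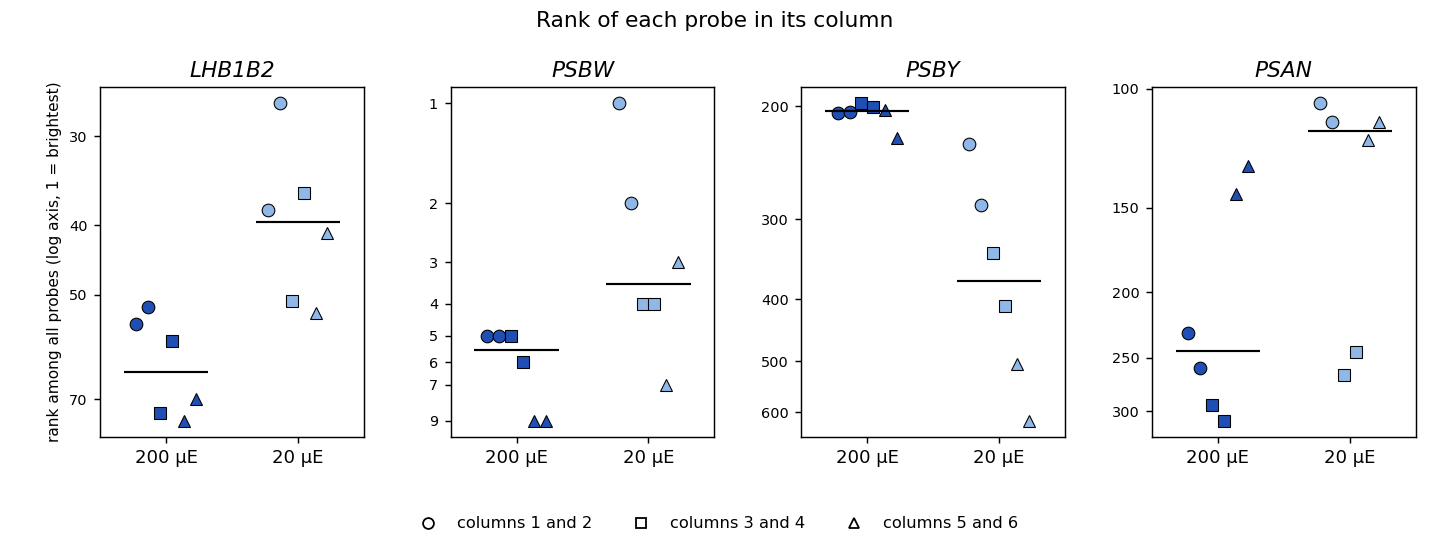
Rank of the 4 probes among all 3439 probes of each column (log axis, rank 1 at the top is the brightest), with lines at the group medians and symbols marking the couples. PSBY sits between ranks 198 and 224 at 200 µE and between ranks 229 and 619 at 20 µE, without overlap, and the other 3 genes stand further from the top at 200 µE in every same-numbered pair.

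PSBY encodes a precursor that is cut into a pair of small membrane proteins associated with photosystem II. At 200 µE its intensity was 1.93 units at the lowest, 2.42 at the median and 2.66 at the highest, against 0.928, 1.71 and 2.02 units at 20 µE. All 6 pairs were higher at 200 µE, and only column 6 at 200 µE lay below the highest 20 µE column. The couple means averaged 2.34 ± 0.307 units at 200 µE and 1.54 ± 0.480 units at 20 µE (SD, n = 3), a ratio of 1.52. For comparison, the mean deposited intensity was higher at 200 µE for 19.7% of the tested probes, PSBW and PSBY among them.

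The ranks of PSBY were narrow in bright light and spread in dim light. At 200 µE it held ranks 198 to 224, with a median of 203.5, and at 20 µE ranks 229 to 619, with a median of 374.5. The groups did not overlap, which was true of 19.0% of the tested probes in this direction. The mean rank differed by -192 places (exact permutation test over 12 columns, two-sided, p = 0.00216, the smallest it allows; p = 0.1 over couple means). At 20 µE the couples stood apart, at mean ranks of 257 for columns 1 and 2, 374.5 for columns 3 and 4 and 562 for columns 5 and 6. Without columns 5 and 6 of both groups the difference was -113.8 places.

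The log2 change of PSBY was 0.67 ± 0.19 after quantile normalisation (limma, adjusted p = 0.0090 with 12 columns, 0.15 with couple means). It was 0.65 ± 0.21 as deposited, 1.28 ± 0.14 after scaling to the 75th percentile and 1.76 ± 0.14 after median centring, and passed with 12 columns each time. With couple means it passed after the last 2 (limma, adjusted p = 0.0074 and 0.0026) but not as deposited (0.15). Over 12 columns 283 of the 2983 tested probes passed as higher as deposited, 652 after 75th percentile scaling and 984 after median centring. With couple means 363 and 660 did so after the last 2 (limma). With the couples as a random block the adjusted p after quantile normalisation was 0.070, and array weights reduced the change to 0.35 ± 0.12 (limma, adjusted p = 0.019). Of all tested probes, 32.1% passed with the random block and 73.5% with array weights (limma).

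PSAN encodes a lumen-side subunit of photosystem I that in Arabidopsis aids electron transfer from plastocyanin. Its intensity was 1.73 units at the lowest, 2.06 at the median and 3.35 at the highest at 200 µE, against 1.98, 2.93 and 3.23 units at 20 µE. The couples differed more than the light levels did. At 200 µE columns 5 and 6 averaged 3.17 units, columns 1 and 2 averaged 2.06 and columns 3 and 4 averaged 1.75. At 20 µE it was columns 3 and 4 that stood low, at 2.03 units, beside 3.14 for columns 1 and 2 and 2.93 for columns 5 and 6.

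PSAN held ranks 130 to 310 at 200 µE and ranks 105 to 265 at 20 µE. It stood further from the top at 200 µE in 6 of 6 pairs, by 68.0 places on average. Exact permutation tests, two-sided, gave p = 0.115 over 12 columns and p = 0.3 over couple means. An exact sign-flip test over same-numbered pairs gave p = 0.0313, the smallest it allows, but it counts the columns of a couple as independent. The log2 change was -0.42 ± 0.25 (limma, adjusted p = 0.18 with 12 columns, 0.45 with couple means). It was -0.24 ± 0.21 as deposited, 0.39 ± 0.28 after scaling to the 75th percentile and 0.87 ± 0.27 after median centring. The last passed as higher over 12 columns (limma, adjusted p = 0.014) and not over couple means (0.12). After median centring 984 of the 2983 tested probes passed as higher over 12 columns (limma). Array weights gave -0.87 ± 0.17 (limma, adjusted p = 0.00059), where 73.5% of all tested probes passed.

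**Figure D3:**
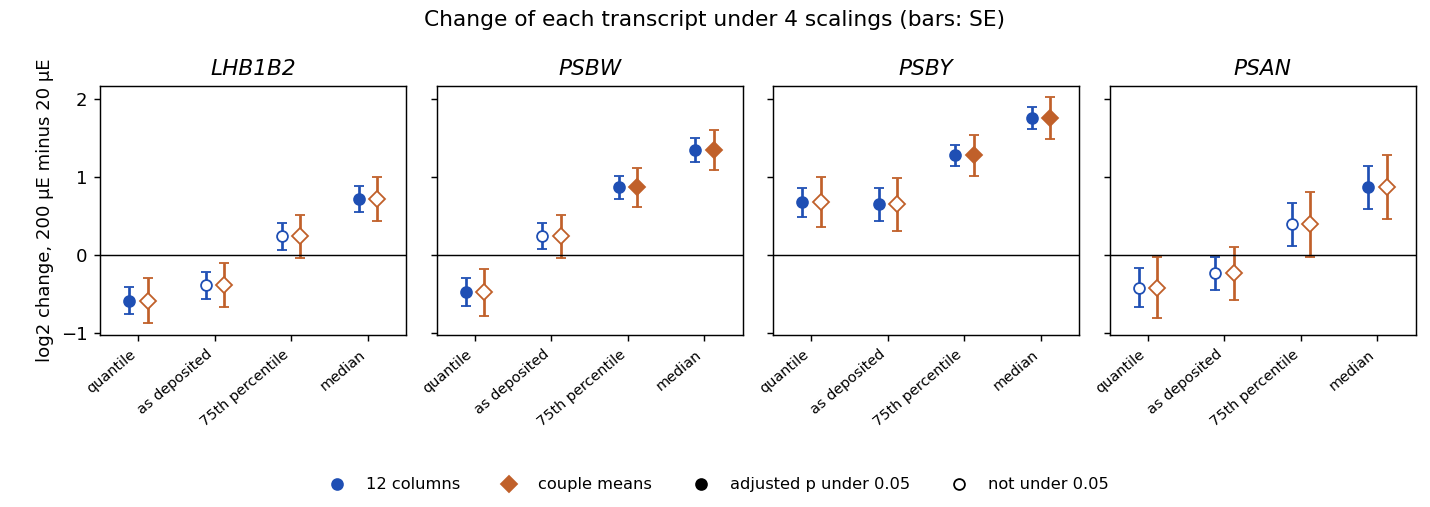
Log2 change (200 µE minus 20 µE) of each gene under 4 scalings, with SE bars from limma over 12 columns (circles) and over couple means (diamonds); filled symbols passed at an adjusted p of 0.05. PSBY is above 0 throughout, from 0.65 to 1.76, and LHB1B2, PSBW and PSAN cross 0.

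The scalings differed in where they set the bulk of the array. The median change over the tested probes was -0.04 after quantile normalisation, -1.09 as deposited, -0.46 after scaling to the 75th percentile and 0.02 after median centring. The 3 linear scalings differ only by 1 shift per column on the log2 scale. Relative to these medians each gene therefore has the same value under all 3 by construction. It was 0.70 for LHB1B2, 1.33 for PSBW, 1.74 for PSBY and 0.85 for PSAN. Relative to the median after quantile normalisation, the values were -0.55, -0.44, 0.71 and -0.39 in the same gene order. Thus against the middle of the array all 4 lay on the higher side under linear scaling, and PSBY alone did so by quantile normalisation. The higher side under linear scaling is not particular to these genes. By deposited group means, each of their neighbours in mean rank, listed below, lay on that side too. AT3G26630, next to LHB1B2, averaged 6.83 units at 200 µE and 9.02 at 20 µE, against 7.04 and 9.26 for LHB1B2. AT1G73430, next to PSBY, averaged 2.46 and 1.56 units, against 2.34 and 1.54 for PSBY.

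The ratio of a pair of probes within a column does not depend on the scale of that column, so the 4 genes were also compared with each other in all 6 pairs. Such a ratio shows unequal change and not which gene changed, and it takes the deposited values as linear. The tests are exact permutation tests over 12 columns, two-sided, with Benjamini-Hochberg adjustment over the 6 pairs. Over couple means no such test can go below 0.1. How many other pairs of probes separate in this way was not counted, and 56.6% of all tested probes passed over 12 columns (limma). A separated pair is therefore not read as particular to these genes.

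PSBY over LHB1B2 had ratios of 0.290 to 0.391 at 200 µE, with a median of 0.326, and of 0.0936 to 0.247 at 20 µE, with a median of 0.168. The groups did not overlap, all 6 pairs were higher at 200 µE, and the mean log2 ratio differed by 1.04, which is 2.05-fold (exact permutation p = 0.00216, adjusted p = 0.00433). By couple the difference was 0.89 for columns 1 and 2, 0.64 for columns 3 and 4 and 1.59 for columns 5 and 6. The ratio of these 2 probes was thus higher at 200 µE in every couple, with couples matched by number. Over couple means the exact permutation test gave p = 0.1 (adjusted p = 0.2).

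PSBW over LHB1B2 had ratios of 8.75 to 12.01 at 200 µE, with a median of 9.34, and of 5.11 to 7.90 at 20 µE, with a median of 6.47. These groups did not overlap either, and the difference of 0.63, or 1.54-fold, was of like size in the 3 couples, at 0.57, 0.51 and 0.80 (exact permutation p = 0.00216, adjusted p = 0.00433). It shrank to 0.11 when quantile-normalised values were used (exact permutation, adjusted p = 0.60). Both photosystem II genes therefore stood higher relative to LHB1B2 at 200 µE on the deposited scale.

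PSBY over PSBW had ratios of 0.0325 to 0.0380 at 200 µE and of 0.0147 to 0.0312 at 20 µE. The groups did not overlap, and the log2 difference was 0.41 (exact permutation p = 0.00216, adjusted p = 0.00433). Much of its size came with column 6 at 20 µE, the column with the ratio of 0.0147. Without that column the difference was 0.25, and without columns 5 and 6 of both groups it was 0.22. With quantile-normalised values it was larger, at 1.15 (exact permutation, adjusted p = 0.0065).

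In all 3 pairs with PSAN the groups overlapped. PSBY over PSAN was higher at 200 µE in 6 of 6 pairs, with a median ratio of 1.18 at 200 µE and 0.612 at 20 µE (log2 difference 0.89, exact permutation p = 0.0281, adjusted p = 0.0422). That call ended when column 1, 2, 3 or 4 at 200 µE, or column 1, 2, 5 or 6 at 20 µE, was left out, with adjusted p up to 0.0877 (exact permutation). PSAN over LHB1B2 differed by 0.15 (exact permutation p = 0.576, adjusted p = 0.576), higher at 200 µE in 3 pairs and lower in 3. PSAN over PSBW differed by -0.48 (exact permutation p = 0.139, adjusted p = 0.166), lower at 200 µE in 5 of 6 pairs.

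**Figure D4:**
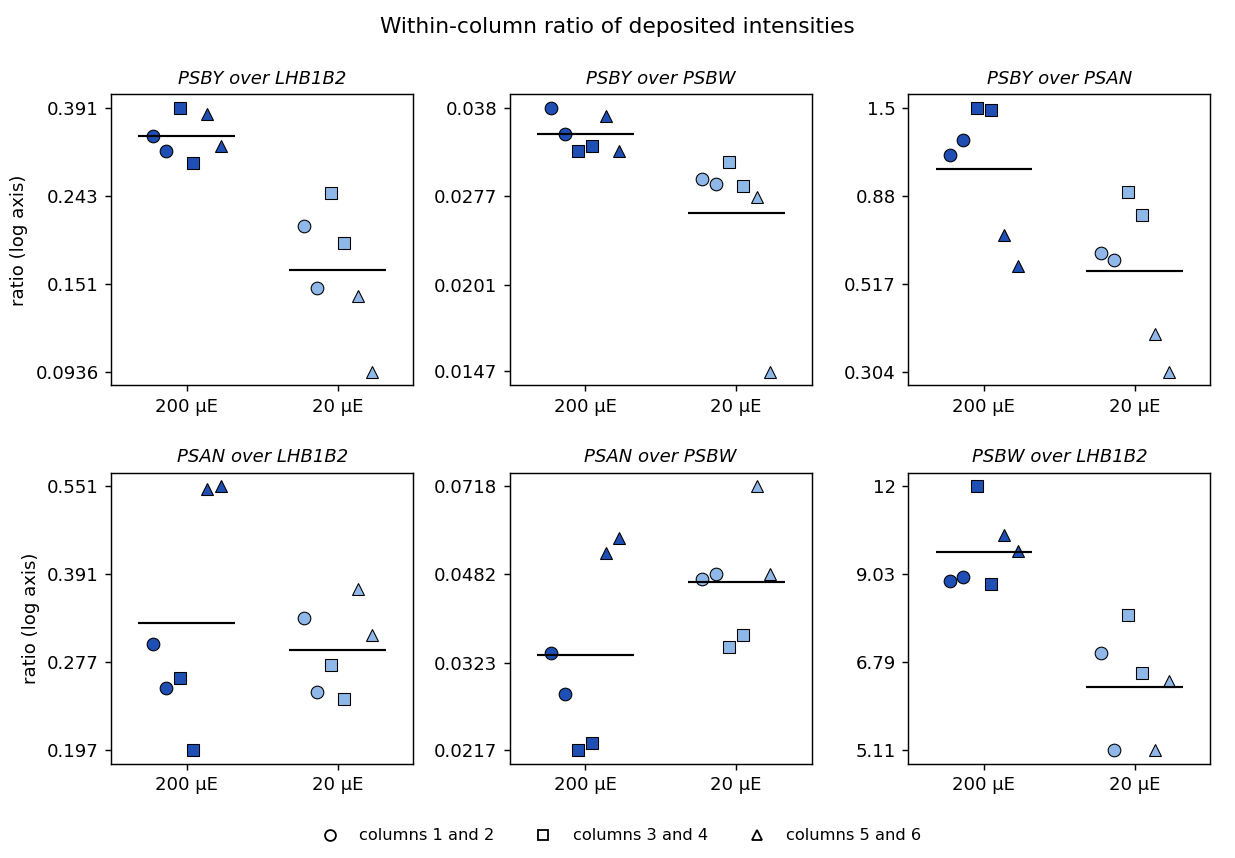
Ratio of deposited intensities within a column (log axis) for the 6 pairs of genes, 6 columns at 200 µE and 6 at 20 µE, with lines at the geometric means and symbols marking the couples. The groups separate for PSBY over LHB1B2, PSBY over PSBW and PSBW over LHB1B2, and overlap for the 3 pairs with PSAN. How many other pairs of probes separate was not counted.

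Of 59 nuclear genes listed for the photosystems, their antennae, the cytochrome b6f complex, electron carriers and the plastid ATP synthase, 5 had a probe naming them alone: the 4 genes above and PSB27. A further 3 probes named listed genes together with other genes and are not assigned here. Over 12 columns 1 of the 5 passed as higher and 2 as lower, against 27.9% and 28.8% of all tested probes (limma). Over couple means 0 of the 5 passed, against 30.7% of all tested probes (limma). The median change of the 5 was -0.42, against -0.04 over all tested probes. These counts turned with the scaling. After median centring all 5 passed as higher over 12 columns, where 984 of the 2983 tested probes did (limma). Of the 5, 2 (PSBW and PSBY) also passed as higher over couple means, where 660 of the 2983 did (limma). The median change of the 5 was then 1.21, against 0.02 over all tested probes.

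PSB27 (AT1G03600) encodes a lumenal protein of photosystem II assembly and repair. Its intensity was 0.585 units at the lowest, 1.404 at the median and 3.61 at the highest at 200 µE, against 0.428, 1.93 and 2.48 units at 20 µE. The log2 change was 0.33 ± 0.57 (limma, adjusted p = 0.64 with 12 columns, 0.77 with couple means). It was 0.10 ± 0.59 as deposited, 0.73 ± 0.50 after scaling to the 75th percentile and 1.21 ± 0.50 after median centring, of which the last passed as higher over 12 columns (limma, adjusted p = 0.048) and not over couple means (0.17). Columns 5 and 6 stood lowest in both groups, with means of 0.636 units at 200 µE and 0.477 units at 20 µE, as they did in PSBY, at 2.005 and 1.003 units.

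The single-gene probes whose normalised values ran most like each gene's over the 12 columns are given as a description only, because light level and couples are shared by all columns. For PSBY these were AT1G17744 (Pearson r = 0.98), AT1G15140 (0.95) and THIC (0.95), and for LHB1B2 they were AT1G09200 (0.92), AT5G40070 (0.92) and AT3G20490 (0.91). For PSBW they were AT4G39760 (0.94), AT1G09200 (0.93) and AT1G20130 (0.92), so that AT1G09200 was near both genes. For PSAN they were AT4G32060 (0.87), AT1G74470 (0.84) and AT4G31930 (0.82).

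The single-gene probes next to each gene in mean rank had changes of differing size and sign. AT4G32060 and AT3G26630, next to LHB1B2, had log2 changes of -0.11 and -0.53, against -0.59 for LHB1B2. AT2G27290, next after PSBW, had -0.77, against -0.48 for PSBW. AT1G01080 and AT1G73430, next to PSBY, had 1.87 and 0.66, against 0.67 for PSBY. AT5G65220 and AT5G06010, next to PSAN, had 0.87 and 0.10, against -0.42 for PSAN.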

How the data were processed

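The deposited values are linear intensities, 1 per probe and sample. For the array's chemistry, background correction, scaling by the authors and genome build, the steps were not given in the sources used here. From the values, the deposited intensities are floored at 0 and stop at 100. All 12 columns were mapped to samples, group and number coming from the titles, and no 2 columns were identical. Genes were named through the platform annotation and a gene table of TAIR10.1.

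Each zero was replaced by the 1st percentile of the positive values in its column, and log2 values were quantile-normalised over 3439 probes. The 2983 probes above 0 in at least 6 columns, named or not, were tested with limma 3.58.1 in R 4.3.3 (lmFit, eBayes, two-sided, Benjamini-Hochberg, threshold 0.05), over 12 columns and over couple means. Median and 75th percentile scalings used each column's values above 0. Ranks count from the brightest probe, and exact tests enumerated all 924 assignments (20 for couple means, 64 sign flips for pairs). The fits and exact tests were checked on simulated data.

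Same-numbered columns of the groups deviated together, with correlations of 0.161 to 0.521 for the 6 pairs. The 30 other pairs between groups overlapped that range, at -0.359 to 0.428. All 12 columns correlated best with their own number in the other group. The numbers were therefore taken as pairs, a reading from the data. Within couples the correlations were 0.187 to 0.794, and between couples at most 0.074. P-values over 12 columns treat columns as independent and measure a spread that may be technical. The genes, lists and tests were chosen with earlier results of these data known. Named were the 4 genes, every listed gene with its own probe, the 3 most similar single-gene probes above 0 in all columns and the neighbours in mean rank. Leaving out columns 5 and 6 of both groups was added afterwards.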

Additional observations from a re-analysis of the deposited data

Results flagged for a closer look

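In 36 sets of 6 columns, 4 held a column apart from the others. About 1.80 (1 in 20) would do so by chance if sets and columns were independent. They are not, because ranks, normalised values and ratios reuse the same intensities and columns of a couple deviate together. An excess cannot be read from these counts. PSBY held rank 224 in column 6 at 200 µE against 198 to 205 in the other columns there. Its normalised log2 value in that column, which follows from the rank, was 1.05 against 1.14 to 1.18. The ratio of PSBY over PSBW was 0.0147 in column 6 at 20 µE against 0.0275 to 0.0312 in the others. The ratio of PSAN over PSBW was 0.0718 in column 5 at 20 µE against 0.0347 to 0.0483 in the others, and PSBW itself had its lowest intensity, 39.1 units, in that column.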

How the results depend on the processing

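Over 12 columns, a random block for couples left the changes of LHB1B2, PSBW and PSBY at -0.59, -0.48 and 0.67 but took their calls (limma, adjusted p = 0.22, 0.27 and 0.070). As deposited LHB1B2 kept its sign without passing (-0.39) and PSBW turned (0.24). After median centring LHB1B2, PSBW and PSAN turned to 0.72, 1.34 and 0.87, and after 75th percentile scaling to 0.24, 0.87 and 0.39. Averaging couples leaves each change as it is by construction and alters only its error. Over couple means PSBY passed at 1.76 and 1.28 and PSBW at 1.34 and 0.87 under these scalings. There 660 of the 2983 tested probes passed as higher after median centring and 363 after 75th percentile scaling (limma). With array weights PSAN passed at -0.87, and PSBY, LHB1B2 and PSBW still passed at 0.35, -0.77 and -0.64. Under these weights 73.5% of all tested probes passed (limma). The replicate number as a block gave -0.59, -0.48, 0.67 and -0.42 for LHB1B2, PSBW, PSBY and PSAN and changed no call (limma, adjusted p = 0.0041, 0.020, 0.012 and 0.060). Single columns left out gave -0.55 to -0.40 for PSBW, 0.57 to 0.81 for PSBY and -0.66 to -0.48 for LHB1B2. The pseudocount, the filters and the choice of listed probes changed no call of the 4 genes.

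Over couple means the exact tests cannot pass, and the differences are the same by construction: this ended the calls of the rank differences of 22.8 for LHB1B2, 3.0 for PSBW and -192 for PSBY, and of the log2 ratios of 1.04, 0.41, 0.89 and 0.63 for PSBY over LHB1B2, PSBW and PSAN and for PSBW over LHB1B2. Among listed probes the rank difference of PSBW turned to -0.5, and single columns left out gave 2.5 to 3.7. The PSAN rank difference of 68.0 passed in same-numbered pairs (exact sign-flip test with the replicate number as block). That test counts the columns of a couple as independent, and over couple means p was 0.3 (exact permutation). Quantile-normalised values gave 1.15 for PSBY over PSBW, 0.11 for PSBW over LHB1B2 and 0.059 for PSAN over PSBW. Without columns 5 and 6 of both groups PSAN over LHB1B2 turned to -0.12 and PSAN over PSBW passed at -0.66 (exact permutation, adjusted p = 0.034). Single columns left out gave 0.71 to 1.06 for PSBY over PSAN and -0.0017 to 0.30 for PSAN over LHB1B2. Probes called numbered 1689 over 12 columns, 959 with the random block, 916 over couple means and 1592 over couple means as deposited, of which 11.1% were higher at 200 µE against 51.1% after quantile normalisation. Leaving out couples 1, 2 or 3 of both groups gave 259, 150 and 903. The cause of these differences was not tested.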
